A study of Homo sapiens with 12 samples.

Results

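Connexins and pannexins are 2 families of membrane channel proteins, and 5 of their genes, GJA1, GJA9, GJC1, GJB2 and PANX1, are described here across olaparib and radiation treatment of SBC5 cells, a cell line grown from a human small cell lung cancer. They were found by symbol among 60605 genes of the deposited table, and all 5 passed the filter on counts. GJA9 passed it through the irradiated libraries in which it was chosen as high. It had only 0 to 6 counts in the unirradiated libraries that were tested. The set was selected on measured values, since earlier results of these data had GJA1 lower and the sparse GJA9 higher after irradiation. For that reason the values of all 5 genes in irradiated against vehicle cells, with or without olaparib, are a description with no p-value. Every group was labelled as wild type and collected at day 3, and stranded libraries were made from total RNA. The combination group received olaparib, an inhibitor of PARP enzymes, at 1 µM and 4 Gy of gamma radiation 2 hours later. The radiation group received dimethyl sulfoxide (DMSO) and 4 Gy, the olaparib group olaparib at 1 µM without radiation, and the vehicle group DMSO without radiation.

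Connexins assemble as hexamers in the membrane, and hexamers of neighbouring cells dock into gap junction channels that let ions and small metabolites pass between cytoplasms. Pannexins have a similar fold but act mainly as channels of a single membrane that release ATP. GJA1 encodes the most widely expressed connexin, GJC1 a connexin of heart conduction tissue and vessels, and GJB2 a connexin of the inner ear and epithelia. GJA9 encodes a less studied connexin of the alpha group, and PANX1 encodes the pannexin that caspases open by cleaving its tail.

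The 4 connexins share a feature of their family, which follows from taking connexin genes by symbol. It is cysteine codons at fixed spacing in the stretch for the first extracellular loop, where docking takes place. The stretches are shown because they place GJA9 in the same family as GJA1 by sequence. They were read 5′ to 3′ from the longest open reading frame of GENCODE 29 transcripts, and capitals mark the cysteine codons:
GJA1: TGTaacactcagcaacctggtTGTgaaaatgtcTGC
GJA9: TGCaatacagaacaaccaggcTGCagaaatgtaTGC
GJC1: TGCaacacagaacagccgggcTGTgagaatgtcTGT
GJB2: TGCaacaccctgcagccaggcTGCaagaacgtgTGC
GJA1 and GJA9 had the same base at 25 of 36 positions, and the 6 pairs of these stretches had 69.4% to 75% in common. The pattern was found in 20 of 21 connexin genes and in 0 of 3 pannexin genes, PANX1 among them.

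The promoters of GJA1 and PANX1 are shown because GJA1 was lower and PANX1 higher in irradiated than in vehicle libraries. Each runs from 250 bases before to 50 after the RefSeq start (GRCh38.p14), on the plus strand, at chr6:121435396-121435695 for GJA1 and chr11:94128591-94128890 for PANX1. RefSeq entries were matched for GJA1, GJB2 and PANX1. Capitals mark matches on either strand to TGAGTCA, the core site of AP-1 factors, or to GGGCGG, the GC box:
GJA1: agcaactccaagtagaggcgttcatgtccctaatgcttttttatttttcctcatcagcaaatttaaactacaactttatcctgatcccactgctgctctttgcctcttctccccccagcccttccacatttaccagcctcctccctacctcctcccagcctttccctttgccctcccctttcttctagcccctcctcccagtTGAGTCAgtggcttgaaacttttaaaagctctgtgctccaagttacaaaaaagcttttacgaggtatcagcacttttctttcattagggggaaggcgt
PANX1: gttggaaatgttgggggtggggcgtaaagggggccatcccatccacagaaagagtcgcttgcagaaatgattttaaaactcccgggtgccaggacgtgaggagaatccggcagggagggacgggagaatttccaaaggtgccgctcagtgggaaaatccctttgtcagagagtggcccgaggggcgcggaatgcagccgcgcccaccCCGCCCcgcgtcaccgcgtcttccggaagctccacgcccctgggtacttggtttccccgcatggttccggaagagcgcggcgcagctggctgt
The AP-1 letters stood once in the GJA1 window, at -48 to -42 from the start, and in 4.95% of 35116 promoter windows. The GC box letters stood once in the PANX1 window and 3 times in that of GJB2, and in 45% of all windows. A match is a description of the letters only.

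Totals of estimated counts were 14.3 to 38.8, in units of 1000000, over 12 libraries, 3 per group. In 3 libraries (olaparib 2, olaparib 3 and radiation 3), 404 genes of olfactory receptors, a family used by sensory neurons, summed to 920.2 to 2098 CPM (counts over the total, times 1000000), against 354.7 to 501.4 in the other 9. These 3 high-background libraries were set apart. The tests used the other 9: combination 1 to 3, radiation 1 and 2, olaparib 1 and vehicle 1 to 3. Of 11 markers of small cell lung cancer, YAP1, UCHL1, SYP and CHGB had at least 1 CPM in all 9, while the neuroendocrine factor INSM1 reached at most 0.306 CPM. The sources do not say whether libraries of a group came from separate cultures, so p-values measure the spread between libraries, which may be technical.

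GJA1 was by far the most abundant connexin mRNA and was lower in both irradiated groups. In GENCODE 29 (GRCh38) it lies on the plus strand at chr6:121435577-121449727. Combination 1, 2 and 3 had 4374, 4676 and 4674 counts, or 213, 209.6 and 222 CPM after scaling by TMM (scaled CPM), edgeR's factors for differences in library composition. Radiation 1 and 2 had 8478 and 6860 counts, or 282.6 and 251.7 scaled CPM. Every combination library lay below both radiation libraries. Olaparib 1 had 14853 counts, or 390.3 scaled CPM. Vehicle 1, 2 and 3 had 9215, 11806 and 12007 counts, or 361.2, 373.8 and 384.3 scaled CPM. Among the 9 libraries, no irradiated library overlapped the unirradiated ones, a split whose share over all genes was not counted. Against vehicle alone, 10.4% of all genes were lower without overlap in the combination and 13.5% in radiation. Olaparib 1 lay above all vehicle libraries, as for 24.4% of all genes tested. Olaparib 2 and 3, set apart, lay within the range of the irradiated libraries (278.9 and 249.3 CPM without scaling).

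The mean scaled CPM of GJA1 was 215 ± 6.41 in the combination and 373 ± 11.6 in vehicle (SD, n = 3 each), a log2 change of -0.80 (SE 0.0678). Radiation averaged 267 ± 21.9 (SD, n = 2), a log2 change of -0.48 (SE 0.0761) against the same vehicle libraries. Without scaling these changes were -0.60 and -0.37, since the median of all genes then moved to 0.22 and 0.08, against 0.02 and -0.03 with scaling. The order of groups from low to high was combination, radiation, vehicle and olaparib 1. Olaparib 1 and vehicle differed by a log2 of 0.07 (SE 0.0945, adjusted p = 1 by edgeR), a difference smaller than its SE.

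GJA1 ranked 407th to 432nd among all genes by count in the combination, 307th and 346th in radiation 1 and 2, 187th in olaparib 1 and 197th to 205th in vehicle. Of the counts on all 21 connexin genes, GJA1 took 75.4% to 75.7% in the combination, 77.3% and 78% in radiation 1 and 2, 84.8% in olaparib 1 and 84.2% to 84.9% in vehicle. For each count of GJC1, whose level moved little, there were 5.41 to 5.94 counts of GJA1 in the combination, 6.23 and 6.85 in radiation 1 and 2, 11.5 in olaparib 1 and 9.16 to 10.7 in vehicle. These shares are the same GJA1 counts on a scale within each library.

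Fibroblasts also carry much GJA1, so 5 of their markers were checked. Every library is labelled as the SBC5 cell line and no other cell type is named, so these are levels in SBC5 cultures. Their summed CPM without scaling was 82.4 to 89.6 in the combination, 89.8 and 105 in radiation, 110 in olaparib 1 and 99.6 to 106 in vehicle. Without scaling the combination lay below vehicle, while radiation overlapped it. The sums were not taken with the TMM scaling used for the GJA1 levels above. Its factors, by which CPM are divided, were 0.9165 to 0.9455 in vehicle and 0.9999 and 1.015 in radiation. Most of it was PDGFRA (67.3 to 95.9 CPM) and COL1A1 (11.5 to 17.5), while LUM and COL3A1 stood at 0 to 0.535 CPM. Their part in the GJA1 result was not tested. In bulk RNA of a cell line, fewer cells with a high level and less RNA per cell cannot be told apart.

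Olaparib added to irradiated cells was not a contrast used to choose the genes, so it was tested. It shares its combination and radiation libraries with the contrasts that were used, so its p-values are not independent of the choice. GJA1 was lower in the combination than in radiation (log2 -0.31, SE 0.075, adjusted p = 0.0208 by edgeR's quasi-likelihood test with Benjamini-Hochberg adjustment over 30967 genes). It was the 1 called gene of the 5, where 0.568% of all genes were called, 0.142% higher and 0.426% lower. DESeq2 called the same 1 gene (log2 -0.32, adjusted p = 0.000248). The call was lost without combination 1 (adjusted p = 0.0795), combination 2 (0.0698) or radiation 1 (log2 -0.23, adjusted p = 0.564), and likewise without scaling (log2 -0.22, adjusted p = 0.147), and with all 12 libraries (log2 -0.22, adjusted p = 1). The other 4 genes had adjusted p = 0.873 to 0.979 in that comparison, with log2 changes of 0.18 for GJA9 (SE 0.765), -0.10 for GJC1 (SE 0.115), -0.70 for GJB2 (SE 0.936) and -0.08 for PANX1 (SE 0.177). How far irradiation changed the genes differently with and without olaparib was also estimated, a choice made after the data were seen. That difference contains radiation versus vehicle, which was used to choose the genes, so it is given with no p-value. GJA1 had a log2 difference of -0.38 (SE 0.12), GJA9 -0.74 (SE 1.36), GJC1 0.05 (SE 0.184), GJB2 -1.74 (SE 1.48) and PANX1 -0.29 (SE 0.283). All 5 values rest on olaparib 1 alone for the unirradiated olaparib cells.

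**Figure D1:**
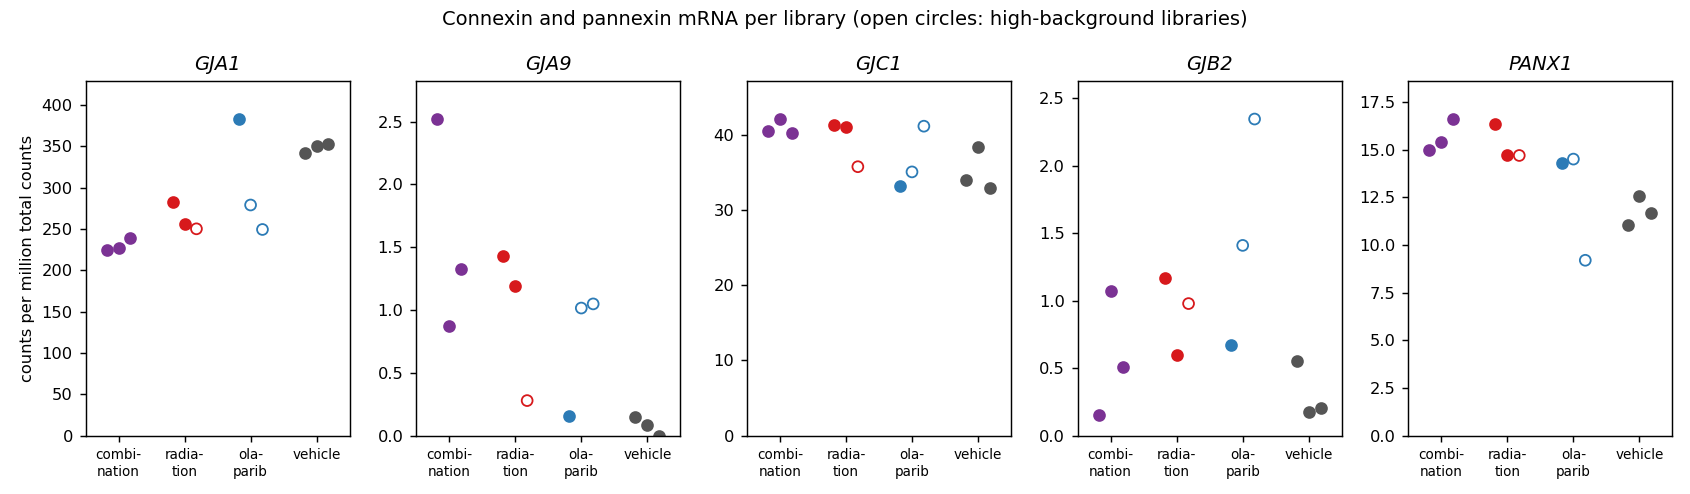
CPM (y axis, linear, without TMM scaling) of the 5 genes in each of 12 libraries by group (x axis); filled circles are the 9 libraries tested and open circles the 3 high-background ones. GJA1 was 225 to 239 in the combination and 341 to 352 in vehicle, while GJA9 was at most 2.52 in any library.

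GJA9 was sparse. Combination 1, 2 and 3 had 49, 18 and 26 counts (2.39, 0.807 and 1.24 scaled CPM) and radiation 1 and 2 had 43 and 32 (1.43 and 1.17). Olaparib 1 had 6 counts (0.158 scaled CPM). Vehicle 1, 2 and 3 had 4, 3 and 0 counts (0.157, 0.095 and 0 scaled CPM). All 5 irradiated libraries of the 9 lay above the 4 unirradiated ones, a split whose share over all genes was not counted. Against vehicle alone, 9.15% of all genes were higher without overlap in the combination and 11.7% in radiation. Olaparib 2 and 3, set apart, lay within the range of these irradiated libraries (1.02 and 1.05 CPM without scaling). Pooled over libraries, 93 counts in the combination stood against 7 in vehicle, a ratio of rates of 18.4, and 75 in radiation gave a ratio of 16.5. The fitted log2 changes were 4.11 (SE 0.845) and 3.93 (SE 0.879).

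GJA9 shares most of its sequence with an overlapping gene, and how reads were divided between them was not tested. In GENCODE 29 (GRCh38), GJA9 lies on the minus strand of chromosome 1 at 38874451 to 38881587, inside the read-through gene GJA9-MYCBP at 38864501 to 38881617, which joins it to its neighbour MYCBP, the gene of a MYC-binding protein. Of the 2025 distinct words of 31 bases in GJA9 transcripts, 92.3% also occur in GJA9-MYCBP transcripts. The read-through gene had 48, 57 and 54 counts in the combination, 30 and 72 in radiation, 104 in olaparib 1 and 30, 82 and 46 in vehicle. Its log2 change was 0.50 (SE 0.415, adjusted p = 0.705) in the combination and 0.05 (SE 0.464, adjusted p = 0.994) in radiation by edgeR.

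With both genes summed, a step added after the data were seen, the level was 3.96 ± 0.695 scaled CPM in the combination and 1.83 ± 0.747 in vehicle (SD, n = 3 each). The log2 change was then 1.11 (SE 0.354), against 4.11 for GJA9 alone. Adding a gene that changed less lowers the fold by construction. In radiation the sum was 3.12 ± 0.977 (SD, n = 2), a log2 change of 0.76 (SE 0.387) in place of 3.93. The sums of the combination (3.36 to 4.72) did not overlap those of vehicle (1.33 to 2.69), while those of radiation (2.43 and 3.82) did. GJA9 took 24% to 50.5% of the summed counts in the combination, 30.8% and 58.9% in radiation, 5.45% in olaparib 1 and 0% to 11.8% in vehicle. The neighbours MYCBP (log2 0.06, adjusted p = 0.944), RRAGC (-0.02, adjusted p = 0.981), an amino acid sensing GTPase, and RHBDL2 (0.03, adjusted p = 0.999), a rhomboid protease, were not called by edgeR in combination versus vehicle.

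**Figure D2:**
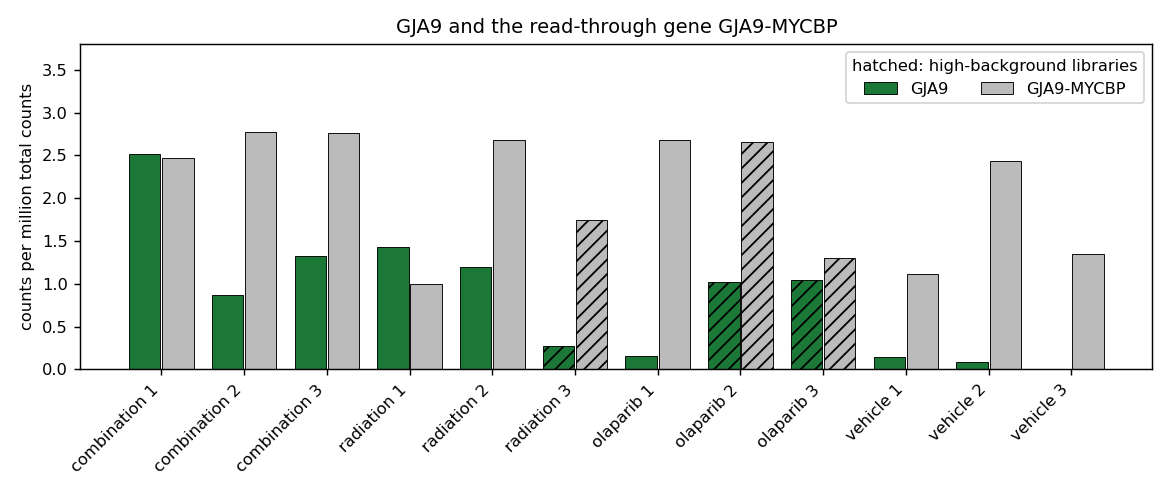
CPM (y axis, linear, without scaling) of GJA9 (green) and the read-through gene GJA9-MYCBP (grey) in each library (x axis); hatched bars are high-background libraries and there are no error bars because each bar is 1 library. GJA9 stood at 0 to 0.155 in the 4 unirradiated libraries of the 9 and at 0.875 to 2.52 in the irradiated ones, while the read-through gene overlapped between groups.

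GJA1 has a processed pseudogene, GJA1P1, on chromosome 5, and 11.5% of the 31-base words of GJA1 occur in it. The pseudogene had 4 to 22 counts in irradiated and 1 to 19 in unirradiated libraries of the 9 against at least 4374 on GJA1 itself. No 31-base word of GJB2 or PANX1 was found in another gene, and 6.94% of those of GJC1 were, spread over many genes.

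GJC1 (chr17:44798448-44830816, minus strand) stayed close to its vehicle level. Its counts were 786, 865 and 787 in the combination (38.2 ± 0.705 scaled CPM, SD, n = 3), 1238 and 1102 in radiation (40.9 ± 0.597, n = 2), 1286 in olaparib 1 (33.8 scaled CPM) and 916, 1289 and 1124 in vehicle (37.6 ± 2.82, n = 3). Both irradiated groups overlapped vehicle. The combination libraries (37.39 to 38.78 scaled CPM) lay below both radiation libraries (40.43 and 41.27), as did those of GJA1 and as for 24.1% of all genes in either direction and 11.9% in this one. Olaparib 1 lay below every vehicle library (35.9 to 40.81), as for 21.1% of all genes. The log2 changes against vehicle were 0.02 (SE 0.103) in the combination, 0.12 (SE 0.114) in radiation and -0.15 (SE 0.145, adjusted p = 1 by edgeR) in olaparib 1. Without scaling the first 2 became 0.22 and 0.23.

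PANX1 (chr11:94128928-94181972, plus strand) was somewhat higher in the treated libraries among the 9. It had 291, 317 and 325 counts in the combination (14.6 ± 0.72 scaled CPM, SD, n = 3) and 491 and 396 in radiation (15.4 ± 1.3, n = 2). Olaparib 1 had 555 counts (14.6 scaled CPM). Vehicle had 299, 422 and 399 counts (12.6 ± 0.832, n = 3). Each treated library among the 9 lay above every vehicle library, which for olaparib 1 held for 24.4% of all genes tested. Olaparib 3, set apart, lay below every vehicle library (9.2 CPM without scaling, against 11.07 to 12.54). The log2 changes were 0.21 (SE 0.16) in the combination, 0.29 (SE 0.176) in radiation and 0.21 (SE 0.22, adjusted p = 1 by edgeR) in olaparib 1.

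GJB2 (chr13:20187463-20193010, minus strand) was too sparse to place in an order. It had 3, 22 and 10 counts in the combination, 35 and 16 in radiation, 26 in olaparib 1 and 15, 6 and 7 in vehicle. The scaled CPM was 0.536 ± 0.423 in the combination (n = 3), 0.877 ± 0.41 in radiation (n = 2), 0.683 in olaparib 1 and 0.334 ± 0.221 in vehicle (SD, n = 3). Radiation overlapped vehicle by 1 library, and the combination spanned the vehicle range. The log2 changes were 0.69 (SE 0.876), 1.40 (SE 0.939) and 1.04 (SE 1.14).

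Of the 5 genes, 3 did not overlap between the combination and vehicle libraries (GJA1 lower, GJA9 and PANX1 higher), as for 19.5% of all genes tested (10.4% lower and 9.15% higher), and the same 3 did not overlap between radiation and vehicle, as for 25.2% (13.5% lower and 11.7% higher). Past the threshold on the adjusted p were 1 lower and 1 higher gene in each of these comparisons, where 4.8% of all genes were called in the combination (3.26% lower and 1.53% higher) and 1.1% in radiation (0.678% lower and 0.42% higher). As these contrasts chose the genes, nothing is read from the counts.

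**Figure D3:**
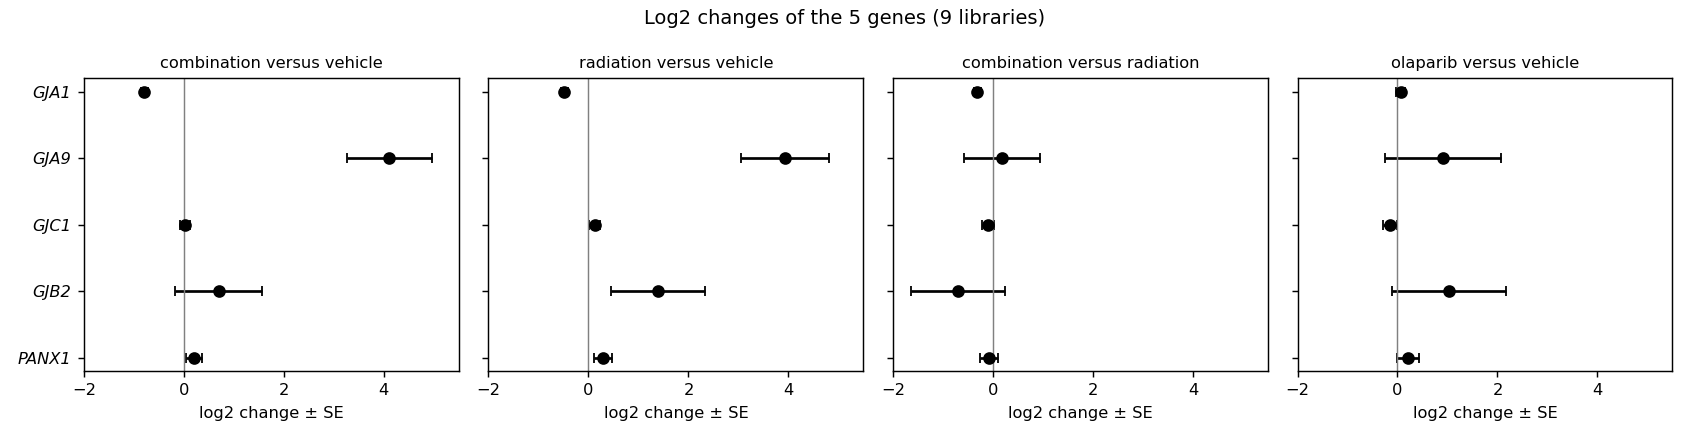
Log2 change (x axis) with 1 SE on either side for the 5 genes (y axis) in 4 comparisons fitted to the 9 libraries; the comparison with olaparib has 1 olaparib library. GJA1 was lower in 3 comparisons, and the wide bars of GJA9 and GJB2 go with their low counts.

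Per kilobase of the longest GENCODE 29 transcript, GJA1 stood at 68.2 scaled CPM in the combination, 84.8 in radiation and 118 in vehicle. On the same scale GJC1 was 4.99, 5.35 and 4.92 in those groups, and PANX1 5.28, 5.58 and 4.56. GJA3, a lens connexin outside the 5, was close to them at 4.8, 5.66 and 5.22. GJA9 was 0.776, 0.686 and 0.0441, and GJB2 0.227, 0.371 and 0.141. The transcript lengths that the authors' tool used were not used here, so these levels are approximate.

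In the high-background libraries, given apart and in CPM without scaling, GJA1 had 3576 counts in radiation 3 (250.1 CPM), 4943 in olaparib 2 (278.9) and 4039 in olaparib 3 (249.3). Olaparib 2 and 3 thus lay with the irradiated libraries for GJA1 and far below olaparib 1 (382.8 CPM). GJA9 had 4 counts in radiation 3 (0.28 CPM), 18 in olaparib 2 (1.02) and 17 in olaparib 3 (1.05), so radiation 3 did not share the level of radiation 1 and 2 (1.43 and 1.19 CPM on this scale). GJC1 had 511 counts in radiation 3 (35.7 CPM), 621 in olaparib 2 (35) and 666 in olaparib 3 (41.1). PANX1 had 210, 257 and 149 counts (14.7, 14.5 and 9.2 CPM) in that order, and GJB2 14, 25 and 38. With all 12 libraries in the fit, GJA1 had a log2 change of -0.60 in olaparib versus vehicle (adjusted p = 0.174 by edgeR), against 0.07 with olaparib 1 alone. The part of the background in these values was not tested.

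Of the 17 other connexins, 9 passed the count filter. By edgeR 0 of them were called in combination versus vehicle and radiation versus vehicle, where 4.8% and 1.1% of all genes were called. At an unadjusted p under 0.05 there were 0 in both, against 4445 and 2997 of all 30967 genes, and DESeq2 called 0. GJA5 had 0 counts in every combination and vehicle library, so it could not be called there. GJA10, GJB1, GJB6 and GJD2 were sparse, with an SE of 1.52 to 2.52 in the combination. Calls of 0 do not show that these genes were unchanged. GJA3 had the highest level (25 ± 1.91 scaled CPM in the combination, 29.5 ± 4.23 in radiation and 27.2 ± 1.95 in vehicle; SD, n = 3, 2 and 3). Its log2 change was -0.12 (SE 0.12, adjusted p = 0.783) in the combination and 0.12 (SE 0.132, adjusted p = 0.876) in radiation by edgeR. In the 9 libraries 1 to 3 of these connexins reached 1 CPM, and 4 to 10 had 0 counts.

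Among 13 other pannexins and large-pore channels, 10 were tested. In combination versus vehicle edgeR called 2 higher and 1 lower, where 1.53% of all genes were called higher and 3.26% lower. PANX2, a pannexin of neurons, was lower (2.63 ± 0.829 scaled CPM against 5.49 ± 1.32 in vehicle, SD, n = 3 each; log2 -1.06, SE 0.313, adjusted p = 0.0293). LRRC8D rose (12.2 ± 1.56 against 6.96 ± 0.817; log2 0.81, SE 0.19, adjusted p = 0.00303), as did LRRC8B (13.7 ± 2.68 against 8.9 ± 1.42; log2 0.62, SE 0.184, adjusted p = 0.0297), both subunits of the volume-regulated anion channel. In radiation versus vehicle, where 0.42% of all genes were called higher, LRRC8D alone was called (log2 0.89, SE 0.206, adjusted p = 0.00932). The 8 genes of this list with a mean of at least 1 scaled CPM had a median log2 of 0.40 in the combination and 0.32 in radiation, where all 18058 genes at that level had -0.01 and -0.02. The list did not move together: PANX2 (-1.06), PANX3 (-0.70) and LRRC8A (-0.04) had negative log2 changes in the combination. In radiation these were -0.96, -0.42 and -0.13.

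The calls of PANX2, LRRC8B and, in radiation, LRRC8D were lost without some single libraries, while the changes kept their direction: over all libraries left out in turn, PANX2 ranged from -1.31 to -0.85, LRRC8B from 0.51 to 0.77 and LRRC8D in radiation from 0.82 to 0.98. In the combination the PANX2 call was lost without combination 1 (adjusted p = 0.0726), combination 3 (0.207), vehicle 2 (0.116) or vehicle 3 (0.204), and without scaling (0.0847), and DESeq2 gave it no adjusted p. That of LRRC8B was lost without combination 2 (0.157), combination 3 (0.231), vehicle 2 (0.161) or vehicle 3 (0.15). In radiation the LRRC8D call was lost without radiation 1 (0.101), radiation 2 (0.0712) or vehicle 2 (0.0786).

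Of 16 partners and scaffolds of connexin plaques, 15 were tested, and in combination versus vehicle 2 were called higher and 3 lower, against 1.53% and 3.26% of all genes. CAV1, which coats caveolae, fell (59.3 ± 3.63 scaled CPM against 85.7 ± 7.6 in vehicle, SD, n = 3 each; log2 -0.53, SE 0.0866, adjusted p = 6.52e-06). CDH2, the N-cadherin gene, fell (30.2 ± 1.86 against 40.7 ± 1.69; log2 -0.43, SE 0.106, adjusted p = 0.00484), as did CTNNB1, which encodes beta-catenin (77.7 ± 4.3 against 96 ± 3.38; log2 -0.31, SE 0.08, adjusted p = 0.0098). The desmosome genes DSP (128 ± 2.18 against 87.8 ± 4.41; log2 0.55, SE 0.0776, adjusted p = 2.48e-07) and PKP2 (17.9 ± 2.14 against 12.2 ± 1.32; log2 0.56, SE 0.163, adjusted p = 0.0271) rose. TJP1, the tight junction scaffold that binds the tail of GJA1, had a log2 change of -0.07 (SE 0.066, adjusted p = 0.791); it was picked for its role after the values were seen. The median of the 15 was -0.07.

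In radiation versus vehicle, CAV1 was lower (log2 -0.56, SE 0.0976, adjusted p = 0.000105) and DSP higher (0.48, SE 0.0855, adjusted p = 0.000176) by edgeR, and both calls held without any single library. With all 12 libraries in the fit, edgeR made none of the calls named for the listed genes (adjusted p = 0.934 to 1). ANK3, an ankyrin that anchors membrane proteins to spectrin, was higher in radiation than in vehicle (18.4 ± 0.503 scaled CPM, n = 2, against 11.3 ± 1.21, n = 3; log2 0.70, SE 0.182, adjusted p = 0.0313) and lower in the combination than in radiation (10.5 ± 1.15 against 18.4; log2 -0.81, SE 0.184, adjusted p = 0.0125). The radiation call was lost without radiation 1 (adjusted p = 0.163), radiation 2 (0.169), vehicle 1 (0.161), vehicle 2 (0.0514) or vehicle 3 (0.0849). The call against radiation was lost without combination 2 (0.0766), radiation 1 (0.158) or radiation 2 (0.0505), and DESeq2 gave it no adjusted p. Over the libraries left out, ANK3 ranged from 0.63 to 0.78 in radiation versus vehicle and from -0.87 to -0.74 against radiation. In the combination, the calls of PKP2 were lost without combination 1 (0.134), combination 3 (0.149), vehicle 2 (0.175) or vehicle 3 (0.0835), and those of CTNNB1 without combination 2 (0.0697) or vehicle 2 (0.0577). Without scaling, CTNNB1 (adjusted p = 0.519) and CDH2 (0.191) were not called.

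Kinases, folding factors and turnover factors of connexins were 18 genes, all tested, and edgeR called 0 in either comparison. At an unadjusted p under 0.05 by edgeR there were 4 in the combination and 3 in radiation, against 4445 and 2997 of all 30967 genes. DESeq2 called 1 and 0 of the 18, against 1751 and 501 of all genes. NEDD4, a ubiquitin ligase that marks the GJA1 protein for removal, had the highest level (172 ± 15.7 scaled CPM in the combination and 189 ± 11.2 in vehicle, SD, n = 3 each; log2 -0.13, SE 0.0738, adjusted p = 0.426). Of 16 genes of ATP release and purinergic signalling, 14 were tested. By edgeR 0 were called in both comparisons, where 4.8% and 1.1% of all genes were called. There were 0 at an unadjusted p under 0.05 and 0 by DESeq2, against the counts of all genes just given.

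**Figure D4:**
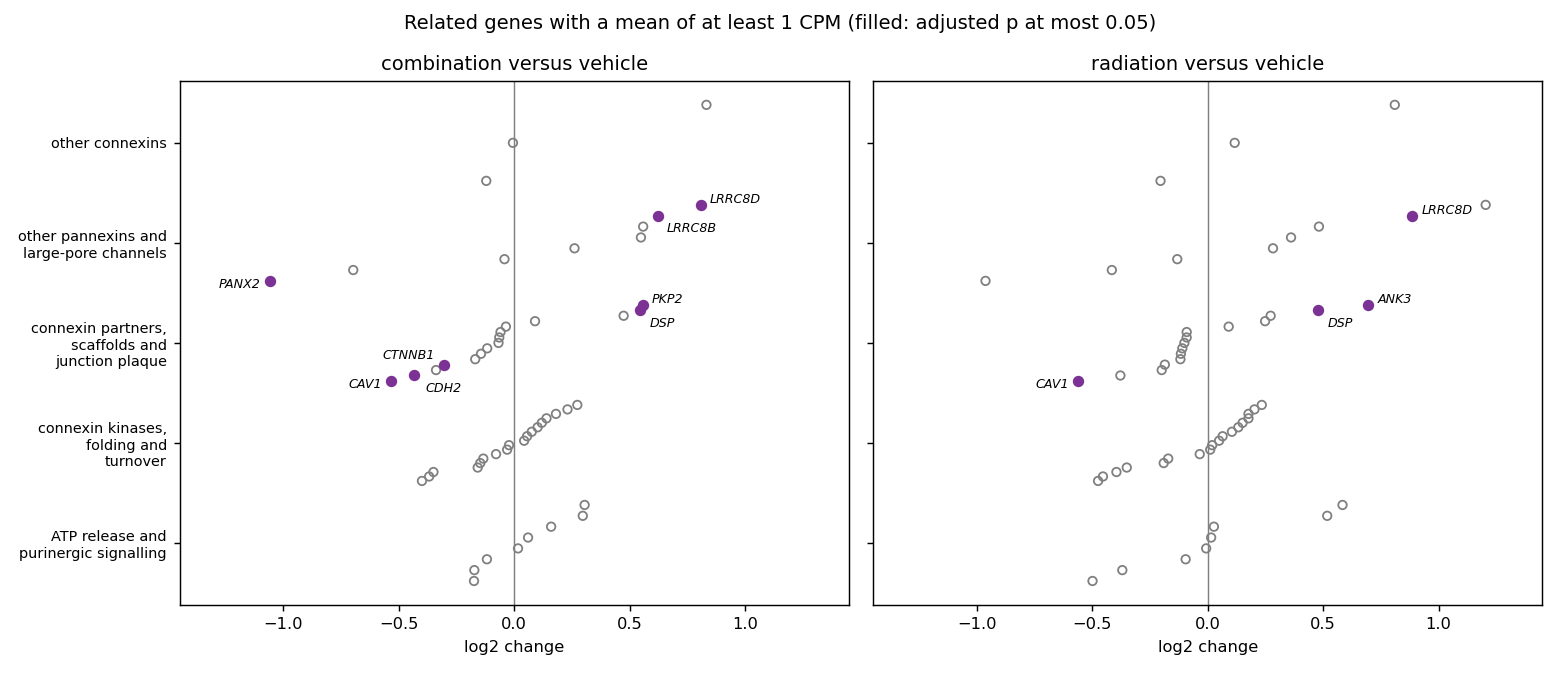
Log2 change (x axis) of the related genes with a mean of at least 1 scaled CPM, by list (y axis; the height within a list only separates the points), in combination versus vehicle (left) and radiation versus vehicle (right); filled points passed an adjusted p of 0.05. PANX2, CAV1, CDH2 and CTNNB1 lie on the left and LRRC8D, LRRC8B, DSP and PKP2 on the right in the first panel.

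In combination versus radiation, edgeR called ANK3 and no other gene of these lists, and in olaparib versus vehicle, with 1 olaparib library, it called 0 of them and 0 of the 5 genes, where 0.0678% of all genes were called (0.00969% higher and 0.0581% lower). At an unadjusted p under 0.05 there were 0 of the 5 and 1 of the listed genes in olaparib versus vehicle, and DESeq2 called 0.

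The genes whose levels followed each of the 5 most closely over the 9 libraries are given as a description, by Pearson's r of log2(scaled CPM + 1) among 15365 or 15366 other genes with a mean of at least 1 scaled CPM. The libraries share groups and depth, so such values are high for many genes. For GJA1 they were GLRB, a glycine receptor subunit (r = 0.993), DNMT1, the maintenance DNA methyltransferase (0.993), and SCG2, a granin of secretory granules (0.992). For GJA9 they were FMNL2, an actin-elongating formin (0.981), RNF6, a ubiquitin ligase (0.974), and ABCA5, a lipid transporter (0.968). PANX1 was followed by MOB4 (0.972), SELENOI (0.972) and AZIN1 (0.96), GJC1 by APTR (0.92), CNKSR3 (0.916) and NIBAN3 (0.91), and GJB2 by COX10 (0.939), PSD (0.938) and PDE6B (0.927).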

How the data were processed

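Kallisto 0.46.1 and DESeq2 are named, per the submitters' processing notes. The genome build and transcript release were not given in the sources used here. The authors deposited estimated counts per gene (expected counts; 68.8% of values were whole to within 1e-06). The 44 rows for pseudoautosomal copies on Y were added to their X counterparts, leaving 60605 genes, of which a name table matched 60463. The estimates were then rounded. GENCODE 29 named GJA9-MYCBP.

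Members and lists were chosen with earlier results of these data known. One fit to 9 libraries (30967 genes) used R 4.3.3 with edgeR 4.0.16: default count filter, TMM, robust quasi-likelihood tests, Benjamini-Hochberg adjustment over all genes tested and a threshold of 0.05. With 1 olaparib library in the fit, a gene could pass that filter on 1 library. SE is the log2 change over the square root of F. The procedure was run on simulated data with changes planted in well-counted genes of the combination group only. That run does not cover sparse genes such as GJA9 and GJB2 or the comparison with 1 olaparib library. Besides the 5 genes and their copies and neighbours, list genes past the threshold were named (at most 6 per list by size of change), otherwise the most abundant, and the 3 closest in pattern. A gene that this rule names in 1 list is not reported here. Alternatives were a replicate block, leaving out each library, all 12 libraries, DESeq2 1.42.0, edgeR with the size factors of DESeq2, no scaling beyond library size, and no filter on counts.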

Additional observations from a re-analysis of the deposited data

Results flagged for a closer look

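Outliers within groups were not sought, since no group has more than 3 libraries. Signal above every vehicle library appeared in the 3 high-background libraries, which the comparisons did not use. All values here are CPM without scaling. GJA9 stood at 0.28 in radiation 3, 1.02 in olaparib 2 and 1.05 in olaparib 3, against at most 0.148 in vehicle. GJB2 stood at 0.979, 1.41 and 2.35 in the same order, against at most 0.555 in vehicle. The 16 other connexins without GJA3 summed to 15.1, 35 and 25.8, against at most 4.44 in vehicle. Of the 17 other connexins, 7 reached 1 CPM in radiation 3, 16 in olaparib 2 and 13 in olaparib 3, and none of them was at 0 counts in these 3 libraries.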

How the results depend on the processing

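The numbers of genes called moved from 1485 (combination against vehicle), 340 (radiation against vehicle), 176 (combination against radiation) and 21 (olaparib against vehicle). With library size only they were 2594 (2275 higher and 319 lower, against 475 and 1010) and 685 (560 and 125, against 130 and 210) in the first 2, and in combination versus radiation 142 higher and 58 lower, against 44 and 132. With no count filter they were 278 in combination versus radiation and 39 in olaparib versus vehicle, and by DESeq2 439 and 38. With all 12 libraries edgeR called 1, 0, 0 and 0, with 1262, 1358, 1044 and 9369 at an unadjusted p under 0.05. With a replicate block 43 were called in olaparib versus vehicle, and GJA1 kept its call in combination versus radiation (adjusted p = 0.0257 by edgeR), while no tested call of the other 4 genes changed. Same-numbered libraries did not deviate together (r = -0.107 to 0.0277 over 7 pairs). Leaving out 1 library gave 1030 to 1716, 200 to 360 (lowest without vehicle 2), 38 to 447 (lowest without radiation 1, highest without radiation 2, and 116 without combination 2 or olaparib 1) and 18 to 33 (highest without vehicle 3).

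Some small changes took the other sign. With all 12 libraries GJA1 was -0.60 and PANX1 -0.32 in olaparib versus vehicle, GJC1 -0.00 in radiation versus vehicle, and GJC1 0.02 and PANX1 0.01 in combination versus radiation; PANX1 was also 0.01 there with library size only. Over single libraries left out, GJA9 ranged from -0.35 to 0.45 and PANX1 from -0.19 to 0.01 in combination versus radiation, and GJC1 from -0.01 to 0.09 and GJB2 from -0.10 to 1.36 in combination versus vehicle. GJA1 kept its sign in combination versus vehicle (-0.83 to -0.60) and radiation versus vehicle (-0.58 to -0.37), as did GJA9 alone (3.52 to 4.82 and 3.34 to 4.65), under every alternative run. The sum of GJA9 and the read-through gene, which changed less, had 1.11 and 0.76. The causes of the other shifts were not tested. Depth limits GJA9 and GJB2, which had at most 49 counts in a library.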
